A study of Mus musculus with 6 samples.

Results

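Primitive erythroid genes are the genes by which the first red blood cells of the embryo make hemoglobin and build their membrane. The set held 9 genes: Kel and Rhag, which encode blood group proteins of the red cell surface, Slc4a1 and Epb42 of the red cell membrane, the transcription factor genes Klf1 and Gata1, the heme synthesis gene Alas2, and the embryonic beta-like globin genes Hbb-bh1 and Hbb-y. They were chosen by function with earlier differences between the genotypes on these same arrays already known, the lower Kel value among them, so their differences are given as a description. A gene counted as measured where an array row listed its symbol alone. That held for 8 of the 9 genes, each with 1 row, out of 22180 genes measured in all. The row that lists Alas2 also lists Apex2, so Alas2 was not analysed here.

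The samples were C57BL/6 mouse hearts dissected at embryonic day 9.5 and pooled before RNA extraction. The 3 Hdac3-Isl1KO pools had the genotype Hdac3-flox/flox; Isl1-Cre, and the 3 Hdac3-flox/flox pools carried both floxed alleles without Cre. Hdac3 encodes a histone deacetylase that works in corepressor complexes, and Isl1-Cre acts in cells that express Isl1, among them the second heart field progenitors that extend the heart tube. Only part of the cells of a heart come from that lineage, and the Cre allele itself differed between the groups along with Hdac3. Affymetrix arrays gave 1 RMA value (log2 scale) per row. The sources used here do not give the number of hearts per pool or say whether pools came from separate litters. The p-values thus reflect variation among these pools, some of which may be technical.

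In the mouse, primitive erythroid cells arise in yolk sac blood islands, enter the circulation while still nucleated, and mature in the bloodstream in near synchrony. They therefore fill the lumen of the beating heart at this stage, and a dissected heart carries some of them along. GATA1 and KLF1 switch on globin, heme and membrane genes in these cells. Maturing primitive cells of the mouse also change the balance of their beta-like globins, from Hbb-bh1 early to more Hbb-y later. In whole hearts, fewer erythroid cells and less RNA per erythroid cell cannot be told apart.

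The promoters of 4 members are shown because GATA1 binds a short motif that many erythroid promoters carry: Kel and Rhag, which had the lowest differences, and Klf1 and Hbb-y, which differed little. Each window runs from 250 bases before to 50 bases after a RefSeq transcript start (GRCm38.p6), 5′ to 3′ on the gene's strand, and capitals mark a GATA motif, searched as AGATAA or TGATAA or AGATAG or TGATAG on both strands. The Kel window is chr6:41704276-41704575 (minus strand), the Rhag window chr17:40810899-40811198 (plus strand), the Klf1 window chr8:84901732-84902031 (plus strand) and the Hbb-y window chr7:103853158-103853457 (minus strand).
Kel: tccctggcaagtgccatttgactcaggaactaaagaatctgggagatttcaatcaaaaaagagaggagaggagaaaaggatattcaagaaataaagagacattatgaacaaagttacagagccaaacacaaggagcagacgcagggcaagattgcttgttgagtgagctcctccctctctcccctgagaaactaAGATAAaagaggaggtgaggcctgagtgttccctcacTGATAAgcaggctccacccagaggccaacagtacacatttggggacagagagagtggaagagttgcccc
Rhag: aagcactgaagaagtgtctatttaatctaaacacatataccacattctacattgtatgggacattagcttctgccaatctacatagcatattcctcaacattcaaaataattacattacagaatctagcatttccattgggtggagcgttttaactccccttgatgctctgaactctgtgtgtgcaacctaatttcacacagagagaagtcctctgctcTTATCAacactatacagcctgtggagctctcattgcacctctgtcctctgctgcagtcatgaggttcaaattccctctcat
Klf1: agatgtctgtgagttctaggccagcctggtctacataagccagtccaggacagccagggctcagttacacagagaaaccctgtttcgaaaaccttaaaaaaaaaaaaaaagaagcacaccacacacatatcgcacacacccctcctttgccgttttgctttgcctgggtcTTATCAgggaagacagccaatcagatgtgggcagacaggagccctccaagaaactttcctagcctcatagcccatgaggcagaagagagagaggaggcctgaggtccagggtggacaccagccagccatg
Hbb-y: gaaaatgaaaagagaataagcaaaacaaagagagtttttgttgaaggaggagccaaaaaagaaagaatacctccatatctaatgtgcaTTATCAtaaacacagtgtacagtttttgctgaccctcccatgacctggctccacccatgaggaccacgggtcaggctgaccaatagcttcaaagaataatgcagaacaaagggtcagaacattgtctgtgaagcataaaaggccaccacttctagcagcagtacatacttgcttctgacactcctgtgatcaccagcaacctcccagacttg

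The Kel window held 2 GATA motifs, which began 56 and 19 bases before the start. The Rhag window held 1, which began 31 bases before the start, on the opposite strand. Klf1 had 1 at 80 bases and Hbb-y 1 at 162 bases before the start, both on the opposite strand. Of the 7 members with a promoter window in the RefSeq table, 6 held a GATA motif (Kel, Rhag, Epb42, Klf1, Alas2 and Hbb-y), against 29.8% of all 32851 windows of the same length. A CACCC-type motif of the kind KLF1 binds, searched as CCNCNCCC on both strands with overlapping matches counted, was in 2 of the 7 windows (3 matches in Gata1 and 4 in Alas2), against 49.5% of all windows. Shorter stretches such as CCACCC were not counted, and the Kel, Rhag, Klf1 and Hbb-y windows each hold one on 1 strand or the other. An E-box, searched as CAGNTG, was in 2 of 7 (Epb42 and Klf1), against 37.1%. The members with the lowest differences and those that differed little both held GATA motifs, so both kinds carried it. These matches are letters in a window and say nothing of binding.

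Before the members, the arrays and the labels were compared. Over all genes the correlation between any 2 arrays lay between 0.989 and 0.995, and array medians lay between 5.64 and 5.71. The array least like the others was Hdac3-flox/flox replicate 2, with a mean correlation of 0.991. Hdac3 read 9.11, 9.20 and 9.31 on the Hdac3-Isl1KO arrays, against 9.67, 9.73 and 9.64 on the Hdac3-flox/flox arrays, a log2 difference of -0.47 (limma adjusted p = 0.0636). All 16 cardiomyocyte markers had group means above the median row (5.66). So did the 8 erythroid genes, but Gata1, Klf1 and Kel stood only at percentiles 51.2, 56.6 and 58.6 of all genes. The rows of Hbb-bh1 and Hbb-y stood near the top of the array, where the highest row averaged 14.1. The labelled tissue and embryonic globin RNA were thus both seen in the data.

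Kel showed the clearest difference of the set. It encodes the Kell glycoprotein, a zinc endopeptidase of the red cell surface, and it was 1.77-fold lower in Hdac3-Isl1KO hearts. Rhag, for the Rh-associated glycoprotein that carries the Rh complex to the membrane and conducts ammonia, was 1.49-fold lower. The other surface and skeleton members had smaller negative differences, the transcription factor members small positive ones, and the embryonic globins went opposite ways. Across all genes, 0.198% were called lower and 0.23% higher (limma, adjusted p under 0.05), and of the 8 members Kel was called lower and 0 were called higher. At an unadjusted limma p under 0.05, 3 members were lower and 2 higher, where 7.96% of all genes were lower and 6.57% higher. Groups that did not overlap, with every Hdac3-Isl1KO array below every Hdac3-flox/flox array, were seen for 12.4% of all genes, and for 5 of the 8 members. The opposite order was seen for 9.41% of all genes and 2 members. The median difference over the 8 members was -0.15, where the median over all genes was 9.4e-05. Since the members were chosen with this contrast known, nothing is read from these shares.

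**Figure D1:**
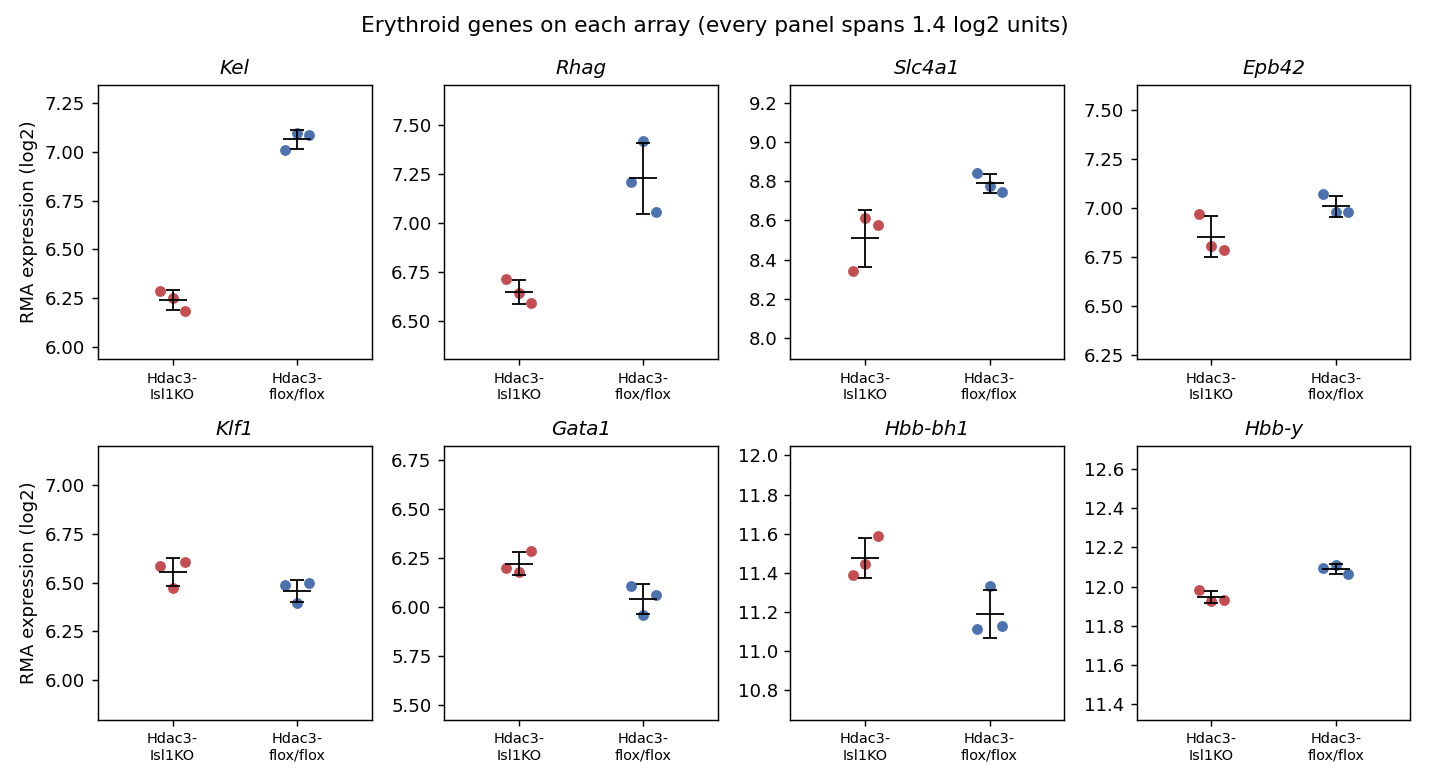
RMA expression (log2) of the 8 measured erythroid genes on each array, with Hdac3-Isl1KO pools in red and Hdac3-flox/flox pools in blue. Dashes are means and bars SDs over 3 arrays, and every panel spans the same range of log2 units. The Kel points sit between 6.19 and 6.29 in Hdac3-Isl1KO and between 7.01 and 7.09 in Hdac3-flox/flox, while the Klf1 groups overlap.

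Kel read 6.29, 6.25 and 6.19 on the Hdac3-Isl1KO arrays, against 7.01, 7.09 and 7.08 on the Hdac3-flox/flox arrays. The groups lay far apart compared with their spread, with means of 6.24 ± 0.05 and 7.06 ± 0.05 (SD, n = 3 each). The log2 difference was -0.82 (95% interval -0.98 to -0.66, limma adjusted p = 0.00965). The size of the Kel difference changed little with the choice of arrays, between -0.85 and -0.79 with any 1 array left out. The call depended on them more: with 1 array fewer in the fit, the limma adjusted p was 0.0448 without Hdac3-flox/flox replicate 2 and between 0.0576 and 0.0832 without any of the other 5 arrays.

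Rhag read 6.71, 6.64 and 6.59 in Hdac3-Isl1KO, against 7.21, 7.42 and 7.05 in Hdac3-flox/flox. The groups did not overlap, and Hdac3-flox/flox replicate 2 was the highest array. The log2 difference was -0.58 (95% interval -0.82 to -0.33), and it missed the threshold over all genes (limma adjusted p = 0.0851). Without Hdac3-flox/flox replicate 2 it was -0.48. The limma adjusted p fell below 0.05 with array weights (0.0385), with a prior variance trended on expression level (0.00846) and with dim genes left out (0.0182 where rows below the median were dropped, 0.0481 where those below the 25th percentile were).

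Slc4a1 encodes band 3, the chloride and bicarbonate exchanger that also anchors the red cell skeleton. Its values were 8.34, 8.61 and 8.57 in Hdac3-Isl1KO, against 8.84, 8.78 and 8.75 in Hdac3-flox/flox. The lowest array was Hdac3-Isl1KO replicate 1, and the groups did not overlap. The log2 difference was -0.28 (95% interval -0.49 to -0.07, limma adjusted p = 0.244), and -0.20 without that array. Epb42 encodes protein 4.2, which links band 3 to ankyrin in the red cell skeleton. It read 6.97, 6.81 and 6.79 in Hdac3-Isl1KO, against 7.07, 6.98 and 6.98 in Hdac3-flox/flox. The groups nearly touched, and the log2 difference of -0.16 (95% interval -0.34 to 0.03, limma adjusted p = 0.425) did not pass.

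Klf1, for the erythroid Krüppel-like factor, read 6.58, 6.47 and 6.60 in Hdac3-Isl1KO, against 6.49, 6.39 and 6.49 in Hdac3-flox/flox. The groups overlapped, and the log2 difference was 0.10 (95% interval -0.07 to 0.26, limma adjusted p = 0.594), or 0.06 without Hdac3-flox/flox replicate 2. Gata1, for the zinc finger factor that erythroid and megakaryocyte cells both need, read 6.20, 6.18 and 6.29 in Hdac3-Isl1KO, against 6.11, 5.96 and 6.06 in Hdac3-flox/flox. These groups did not overlap, with Hdac3-Isl1KO higher, but the log2 difference of 0.18 (95% interval 0.01 to 0.35, limma adjusted p = 0.329) missed the threshold. Gata1 lies on the X chromosome. The female-specific RNA Xist differed by -0.10 (limma adjusted p = 0.577), the Y-linked gene Eif2s3y by -0.23 (0.375) and the Y-linked gene Uty by -0.16 (0.453). The part of the pools' sex in the Gata1 value was not tested.

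Hbb-bh1 and Hbb-y encode the beta-like chains of embryonic hemoglobin and sit in the same gene cluster. Hbb-bh1 read 11.39, 11.45 and 11.59 in Hdac3-Isl1KO, against 11.11, 11.33 and 11.13 in Hdac3-flox/flox, a log2 difference of 0.28 (95% interval 0.07 to 0.50, limma adjusted p = 0.246). Hbb-y read 11.98, 11.93 and 11.93 in Hdac3-Isl1KO, against 12.09, 12.11 and 12.06 in Hdac3-flox/flox, a log2 difference of -0.14 (95% interval -0.29 to 0.004, limma adjusted p = 0.357). In each case the groups did not overlap, with Hbb-bh1 higher and Hbb-y lower in Hdac3-Isl1KO. Neither passed in the main test, and both did with a prior trended on expression level (limma adjusted p = 0.0366 for Hbb-bh1 and 0.0381 for Hbb-y). Bright rows such as these can respond less than fully to differences in RNA, and the related globin genes can share probes, so the sizes are uncertain.

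Differences between genes within an array, a view added after the values were seen, show how unequal the changes were. The value of each gene was taken relative to the mean of the embryonic globins Hbb-bh1, Hbb-y and Hba-x on the same array, and centred on its mean over the 6 arrays. Kel relative to the globins stood at -0.36, -0.37 and -0.54 in Hdac3-Isl1KO, against 0.39, 0.38 and 0.50 in Hdac3-flox/flox, which is -0.85 between the group means. Rhag relative to the globins stood at -0.22, -0.27 and -0.42 in Hdac3-Isl1KO, against 0.31, 0.42 and 0.18 in Hdac3-flox/flox, which is -0.61 between the means. The mean of the 3 globins itself differed by 0.03, since Hbb-bh1 was higher and Hbb-y and Hba-x lower, so this measure stays close to the plain difference of each gene. For Slc4a1 the same measure gave -0.31, for Epb42 -0.18, for Klf1 0.07 and for Gata1 0.15. Hbb-bh1 relative to Hbb-y stood at 0.10, 0.20 and 0.34 in Hdac3-Isl1KO, against -0.30, -0.09 and -0.25 in Hdac3-flox/flox. The balance of these 2 globins was 0.43 log2 units further toward Hbb-bh1 in Hdac3-Isl1KO, and the groups did not overlap. These are descriptions of values that chose the genes, with no test.

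**Figure D2:**
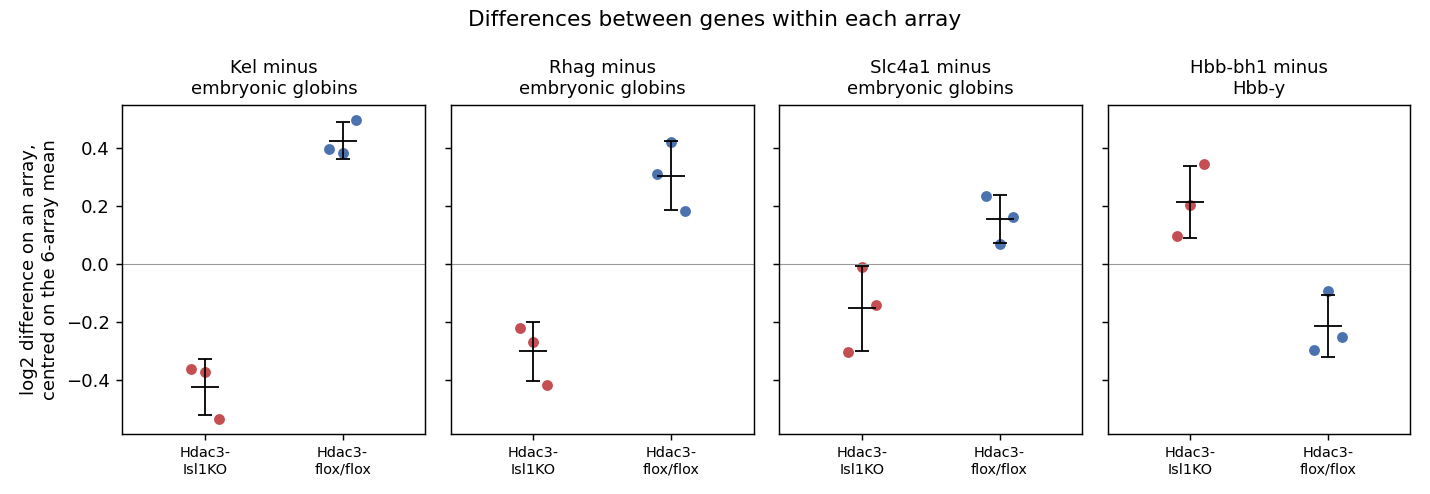
Log2 differences between genes on the same array, centred on their mean over the 6 arrays, with Hdac3-Isl1KO in red left of Hdac3-flox/flox in blue. Dashes are means and bars SDs over 3 arrays. Kel and Rhag relative to the embryonic globins lie below 0 on every Hdac3-Isl1KO array, and Hbb-bh1 relative to Hbb-y lies above 0 on them.

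Over the 6 arrays the members fell into 2 blocks by the sign of their correlation. Kel correlated with Rhag at r = 0.94, with Hbb-y at 0.96, with Slc4a1 at 0.81 and with Epb42 at 0.77, and with Gata1 at -0.89, Hbb-bh1 at -0.84 and Klf1 at -0.70. The arrays form 2 genotype groups, so these values largely restate the group differences and carry no p. The same holds for the genes most like Kel among 5232 candidates over the 6 arrays (SD of at least 0.15 and a mean above the 25th percentile row, 4.45). The candidates left out the members and genes with Gm, Rik, Mir, Snor, Olfr or Vmn symbols. Most like Kel were Cyp2s1, Slc47a1, Scube2, Acadm and Tmem176a, with r between 0.996 and 0.998. Of these, Scube2 (log2 difference -0.46, limma adjusted p = 0.0497) and Tmem176a (-0.73, limma adjusted p = 0.0151) were called lower. The genes most like Rhag were Coq2, Ccp110, Rabggtb, Crtap and C2cd5, with r between 0.991 and 0.995 and 0 called with limma. All 5 had unadjusted limma p-values between 0.00157 and 0.00578.

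The other erythroid genes were taken from 6 lists by role, which named 100 further genes, of which 84 were measured. With limma 0 of the 84 were called in either direction, while 11 were lower and 5 higher at an unadjusted p under 0.05. These are 13.1% and 5.95% of the 84, where 7.96% and 6.57% of all genes passed, so the share that was higher is near that of all genes. Their median difference was -0.03, with 49 below and 35 above 0. Among them 21 did not overlap with Hdac3-Isl1KO lower and 10 with Hdac3-Isl1KO higher, which is 25% and 11.9% of the 84, against 12.4% and 9.41% of all genes. A prior trended on expression level called 6 lower and 2 higher (7.14% and 2.38% of the 84), against 2.3% and 1.6% of all genes.

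**Figure D3:**
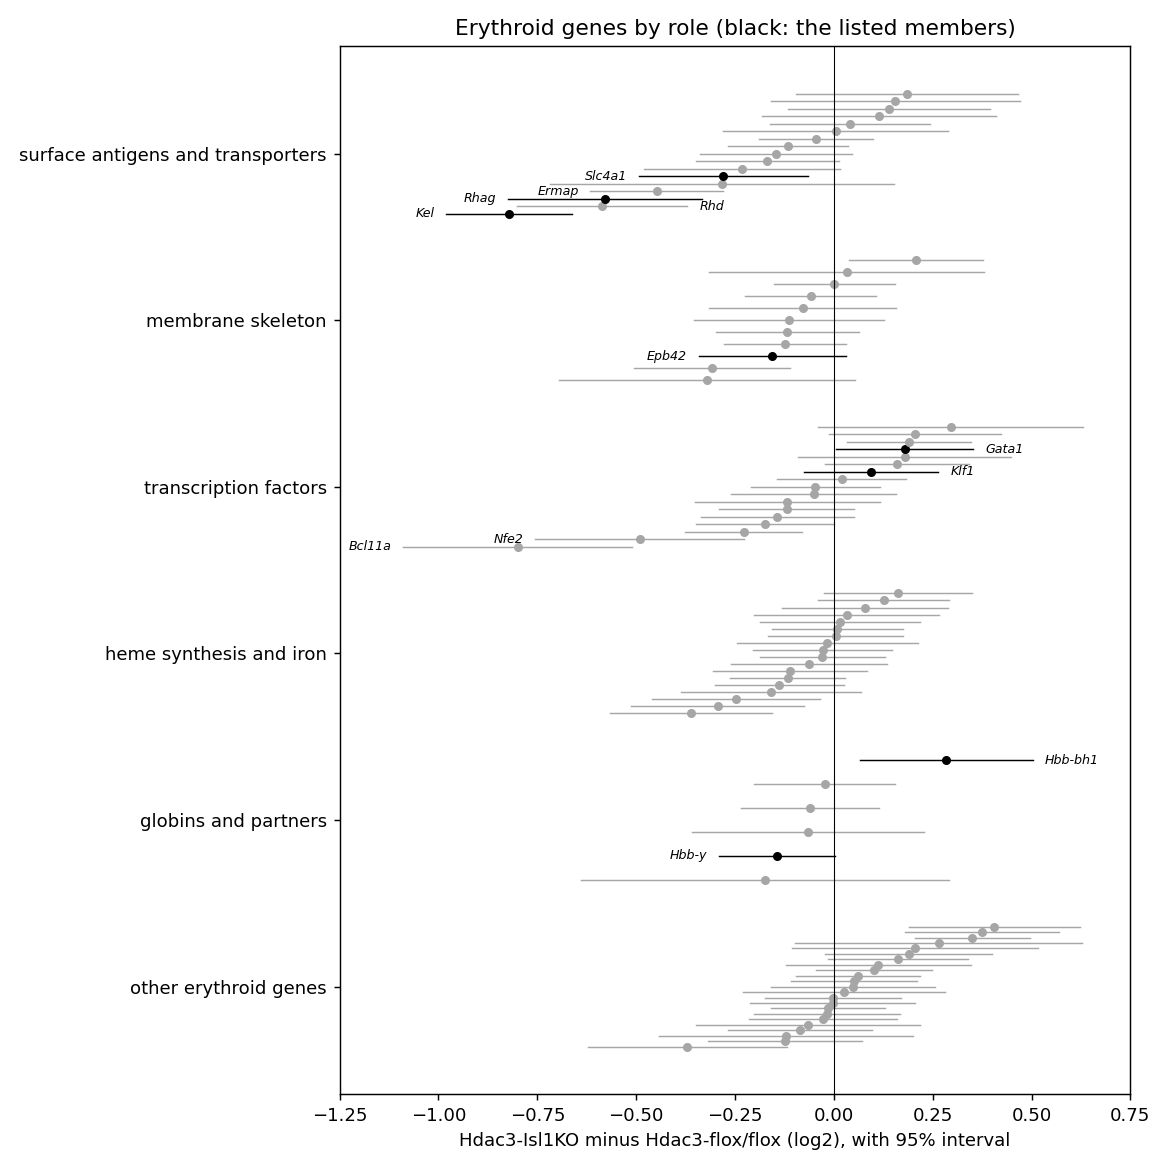
Hdac3-Isl1KO minus Hdac3-flox/flox differences (log2) of all measured erythroid genes with their 95% limma intervals, grouped by role. Black marks the listed members and grey the other genes. Kel (-0.82) has the lowest difference among surface genes, and Bcl11a (-0.80) among transcription factor genes.

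Beside Kel, Rhag and Slc4a1, 14 genes of surface antigens and transporters were measured. Of these, 7 (50%) did not overlap with Hdac3-Isl1KO lower and 0 with Hdac3-Isl1KO higher, against 12.4% and 9.41% of all genes. Their median difference was -0.08, with 8 below and 6 above 0 and a range from -0.59 to 0.19. Rhd, the Rh blood group protein that sits in a complex with Rhag, read 6.10, 6.10 and 6.36 in Hdac3-Isl1KO, against 6.82, 6.76 and 6.74 in Hdac3-flox/flox. Its log2 difference of -0.59 (95% interval -0.80 to -0.37) just missed the threshold (limma adjusted p = 0.0586). Ermap, an erythroid membrane protein of the Scianna blood group, stood at 7.52 ± 0.04 in Hdac3-Isl1KO and 7.97 ± 0.08 in Hdac3-flox/flox (SD, n = 3 each), a log2 difference of -0.45 (limma adjusted p = 0.0614). Both passed with a trended prior, with array weights and with dim genes left out, and their limma adjusted p ranged over all settings from 0.00744 to 0.228 and from 0.00357 to 0.240. Xk, the membrane protein that is bound to Kell by a disulfide bond, showed -0.15 (95% interval -0.34 to 0.05, limma adjusted p = 0.464), its groups overlapped, and it was -0.09 without Hdac3-flox/flox replicate 2. Cd47, a surface signal against engulfment that also sits in the Rh complex, differed by -0.23 (limma adjusted p = 0.375), and by -0.13 without Hdac3-Isl1KO replicate 3.

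Of the 10 other membrane skeleton genes, 7 had negative differences and the median was -0.10. Stom, for the membrane protein stomatin, differed by -0.31 (limma adjusted p = 0.191), Tspan33, a tetraspanin, by -0.32 (0.416), or -0.13 without Hdac3-Isl1KO replicate 2, and Tmcc2 by 0.21 (0.260). Ank1, the ankyrin that ties band 3 to spectrin, differed by -0.12 (limma adjusted p = 0.535) and by -0.06 without Hdac3-flox/flox replicate 1, while a dimmer row of it differed by 0.01. None of these passed the test.

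Among 15 other transcription factor genes, 9 had differences below 0 and 6 above. The differences ranged from -0.80 to 0.30, with a median of -0.05. The groups did not overlap with Hdac3-Isl1KO lower for 4 (26.7%) and higher for 2 (13.3%), against 12.4% and 9.41% of all genes. Bcl11a, which represses embryonic globin genes in definitive red cells, read 5.93, 6.14 and 6.11 in Hdac3-Isl1KO, against 6.76, 7.11 and 6.71 in Hdac3-flox/flox. The groups did not overlap, and the log2 difference of -0.80 (95% interval -1.09 to -0.51) missed the threshold (limma adjusted p = 0.0572). A dimmer row of Bcl11a showed -0.01, so its 2 rows disagree. Averaging them gave -0.41 (limma adjusted p = 0.133). Its limma adjusted p lay between 0.00354 and 0.206 in the alternatives tried. Nfe2, which drives genes of late erythroid and megakaryocyte cells, differed by -0.49 (limma adjusted p = 0.141), and Foxo3 by -0.23 (0.194). Tal1, a partner of GATA1, differed by -0.05 (limma adjusted p = 0.804), with overlapping groups.

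Of the 18 heme and iron genes, 11 had differences below 0 and 7 above. The differences ranged from -0.36 to 0.16, with a median of -0.03. The groups did not overlap with Hdac3-Isl1KO lower for 5 (27.8%) and higher for 2 (11.1%), against 12.4% and 9.41% of all genes. Ppox, for the next to last enzyme of heme synthesis, differed by -0.36 (limma adjusted p = 0.156), Tfrc, the transferrin receptor that brings iron into erythroid cells, by -0.29 (0.237) and Steap3, which reduces that iron, by -0.25 (0.284). Ppox and Tfrc passed with a trended prior (limma adjusted p as low as 0.0135 and 0.0399). Of the 4 other globin genes measured, 0 had groups that did not overlap. Of all genes, 12.4% had that order with Hdac3-Isl1KO lower and 9.41% with it higher. Hba-x, the embryonic zeta-globin that pairs with the beta-like chains, read 9.70, 9.62 and 9.77 in Hdac3-Isl1KO, against 9.76, 9.82 and 9.70 in Hdac3-flox/flox, a log2 difference of -0.06 (95% interval -0.23 to 0.11, limma adjusted p = 0.753). The minor globins Hbb-bh2 (-0.17) and Hbq1b (-0.07) had limma adjusted p-values of 0.734 and 0.852. Array rows of the adult alpha and beta globins list several genes each and were not used here.

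Of the 23 remaining erythroid genes, 13 had differences above 0 and 10 below, with a median of 0.05 and 0 called with limma. At an unadjusted limma p under 0.05, 3 were higher and 1 lower, where 6.57% and 7.96% of all genes were. The groups did not overlap with Hdac3-Isl1KO higher for 5 of them, where 9.41% of all genes had that order. They did not overlap with it lower for 1, where 12.4% of all genes had that order. Isg20 differed by 0.41 (limma adjusted p = 0.141), the peroxide-removing enzyme gene Gpx1 by 0.37 (0.134) and the coactivator gene Cited2 by 0.35 (0.0804). With a trended prior Cited2 and Gpx1 passed (limma adjusted p = 0.000366 and 0.00537) and Isg20 did not (0.0546). Cited2 and Gpx1 are used by many cell types, so their values are not specific to red cells. In whole hearts the same limit applies to lower genes of the other lists, such as Tfrc, Ppox, Stom, Cd47 and Foxo3.

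Markers of other cell types were read on the same arrays. Of all 22180 genes, 11087 had differences below 0 and 11093 above. With limma at an adjusted p under 0.05, 0.198% of all genes were called lower and 0.23% higher. The megakaryocyte and platelet list, whose cells share GATA1 and NFE2 with the erythroid line, had 12 of 15 measured genes below 0 and a median of -0.33, with mean log2 levels of 6.34 to 6.40 on the Hdac3-Isl1KO arrays and 6.65 to 6.74 on the Hdac3-flox/flox arrays. Ppbp, a platelet chemokine, differed by -0.93 and was called lower (limma adjusted p = 0.0300, and between 0.00137 and 0.151 in other settings), and Tubb1, the platelet tubulin, by -0.89 (0.0694). The hepatic and yolk sac endoderm list had 15 of 17 genes above 0 (mean log2 level 5.35 to 5.43 in Hdac3-Isl1KO and 5.03 to 5.20 in Hdac3-flox/flox). Those levels lie below the median row (5.66). Fgb, at percentile 38.8 of all genes, was called higher (0.93, limma adjusted p = 0.0204), and Afp, at percentile 58.0, stood at 0.84 (0.0515). The placenta and trophoblast list, part of it known from these arrays to be higher, had 10 of 11 genes above 0 (6.51 to 6.57 in Hdac3-Isl1KO and 5.67 to 5.83 in Hdac3-flox/flox) and 6 called higher, among them Prl4a1 (1.81) and Prl7a1 (1.32), with limma adjusted p-values of 0.00127 and 0.00818.

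The macrophage list had 13 of 16 genes above 0, with Adgre1 at 0.40 (limma adjusted p = 0.217) and Mrc1 at 0.37 (0.303), and mean log2 levels of 5.51 to 5.62 in Hdac3-Isl1KO and 5.35 to 5.48 in Hdac3-flox/flox. These levels lie below the median row (5.66), and Adgre1 and Mrc1 are dim, at percentiles 23.8 and 33.3 of all genes. Endothelial and endocardial genes had a median of -0.05 and overlapping mean levels, 8.11 to 8.13 in Hdac3-Isl1KO and 8.11 to 8.17 in Hdac3-flox/flox, with Egfl7 at -0.19 and Flt1 at 0.16 (limma adjusted p = 0.285 and 0.372). The cardiomyocyte list had 14 of 16 genes below 0 and a median of -0.11. Its groups did not overlap with Hdac3-Isl1KO lower for 12 genes (75%), where 12.4% of all genes had that order. The mean levels of the list were 11.27 to 11.31 in Hdac3-Isl1KO and 11.39 to 11.41 in Hdac3-flox/flox, with Pln at -0.43 (limma adjusted p = 0.0636) and Myl2 at -0.29 (0.1504). The part of any of these cells in the Kel and Rhag values was not tested.

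**Figure D4:**
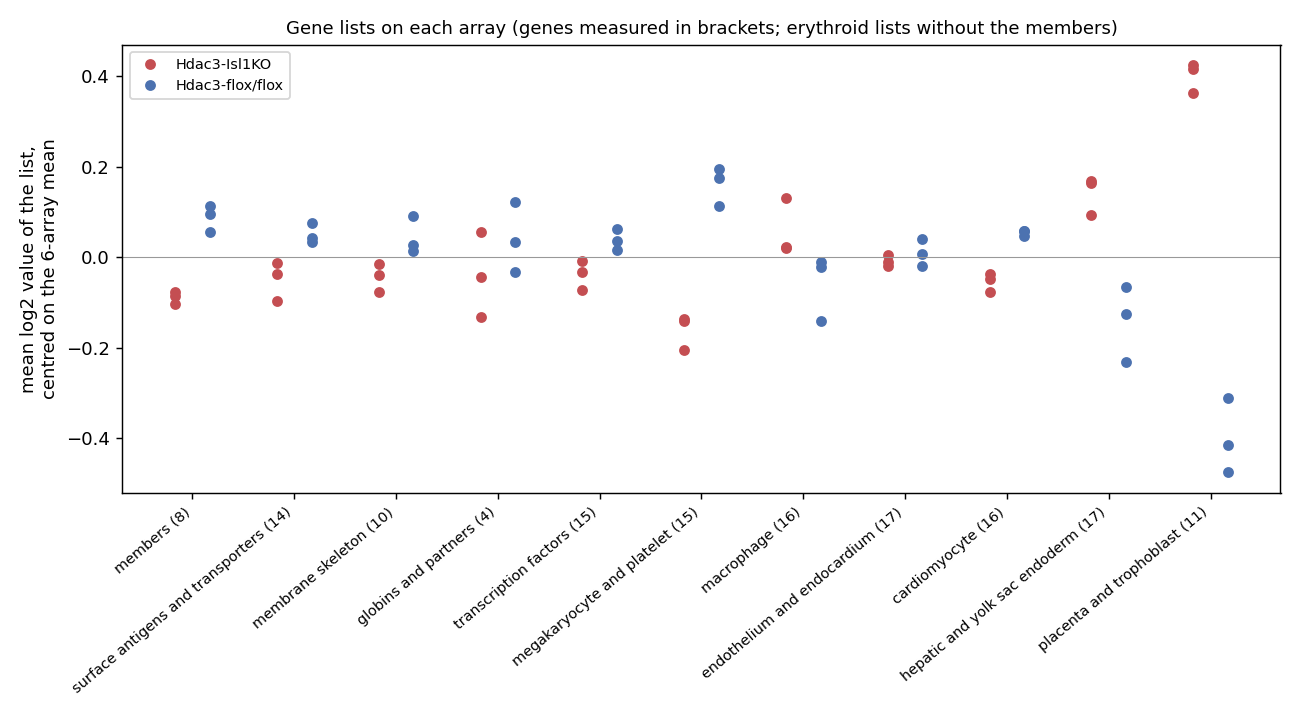
Mean log2 value of each gene list on each array, centred on its mean over the 6 arrays, with Hdac3-Isl1KO in red left of Hdac3-flox/flox in blue and the number of measured genes in brackets. The other erythroid lists are shown without the members. The globin list, which thus lacks Hbb-bh1 and Hbb-y, overlaps between the groups. The megakaryocyte list (6.34 to 6.40 in Hdac3-Isl1KO and 6.65 to 6.74 in Hdac3-flox/flox before centring) does not.

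Of the 15 alternatives run, 6 change only the spread, the genes tested or the rows averaged and leave every member's difference as it was. Under the other 9, the signs of the 8 members held. Rhag ranged from -0.66 to -0.48, Slc4a1 from -0.33 to -0.20, Epb42 from -0.21 to -0.12 and Hbb-y from -0.17 to -0.13. Klf1 ranged from 0.06 to 0.13, Gata1 from 0.14 to 0.21 and Hbb-bh1 from 0.23 to 0.36. The order of the members by size thus had Kel first and Rhag next in these settings. The limma adjusted p of Kel ranged from 0.000311 to 0.105 and that of Rhag from 0.00845 to 0.288.

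**Figure D5:**
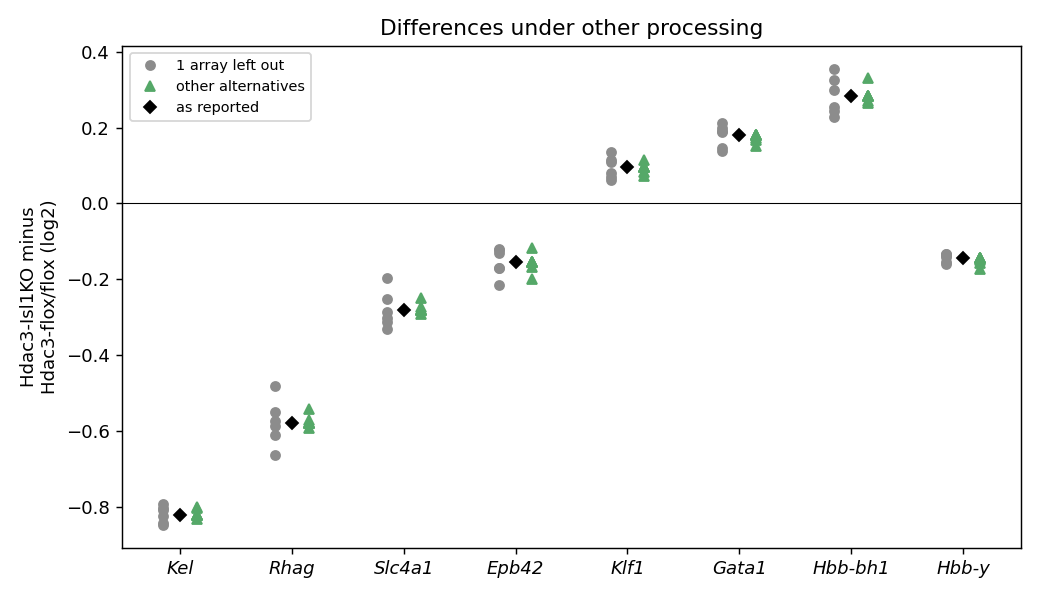
Hdac3-Isl1KO minus Hdac3-flox/flox differences (log2) of the 8 erythroid genes as reported (black), with 1 array left out in turn (grey) and under the other processing alternatives (green). No gene crosses 0, and Kel stays between -0.85 and -0.79.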

How the data were processed

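Affymetrix arrays measured pooled embryonic hearts, 3 Hdac3-Isl1KO and 3 Hdac3-flox/flox pools. Per the labels' protocols, biotinylated cDNA was made from 100 ng of total RNA with the GeneChip WT PLUS kit. The authors deposited log2 expression values, made with oligo and RMA per the submitters' processing notes, which correct background, quantile normalize and summarise probes. The sources used here give neither their versions nor a genome build. No detection calls or array batches were used, and the number of arrays limits precision.

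Of 41345 rows, 23521 listed 1 symbol in the platform annotation, 1814 several and 16010 none. The brightest row stood for a gene, which gave 22180 genes with no filter on dim ones. Differences (Hdac3-Isl1KO minus Hdac3-flox/flox) were tested across all genes with limma 3.58.1 in R 4.3.3 (lmFit, eBayes with a constant prior, two-sided, 6.92 degrees of freedom) and Benjamini-Hochberg adjustment. The steps were tested on simulated data. Promoter windows came from RefSeq (GRCm38.p6), and 7 of 9 members matched by symbol. Figures used matplotlib 3.10.9 in Python 3.11.15.

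The members, lists and tests were chosen with earlier results of these data known. Named were all members, up to 3 further genes of each erythroid list with the smallest p-values, up to 2 of each other list, Hdac3, Hba-x, Rhd, Xk, Ank1, Tal1 and the 5 genes most like Kel and Rhag. Xist was named after its value was seen. Same-numbered pools are not tied by the labels, and their deviations from group means correlated at -0.01, -0.09 and 0.04, so no block was used.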

Additional observations from a re-analysis of the deposited data

How the results depend on the processing

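The 8 members kept their signs under the 9 alternatives that change a difference. The other 6 (the replicate block, both filters on dim rows, the mean of rows and both trended priors) leave the members' differences as they were. Of 54 named genes, Hbb-bh2 and Hbq1b alone changed sign: Hbb-bh2 ranged from -0.30 to 0.040 with 1 array left out, and Hbq1b from -0.16 to 0.033, and it was 0.042 with array weights. Members called lower were 1 in the main test, 2 with array weights, above the 25th percentile or the median row or at an adjusted p under 0.1, 3 with a trended prior, robust or not, 0 to 1 with 1 array left out, and 0 with a replicate block, which also called 0 genes lower and 0 higher. Members called higher were 0, and 1 with either trended prior. Nothing ties same-numbered pools, so the lost Kel call under the replicate block (limma adjusted p = 0.105) says nothing of its size. Calls of other named genes depended on the settings too: over all alternatives the highest limma adjusted p was 0.212 for Scube2, 0.141 for Tmem176a, 0.119 for Fgb, 0.0947 for Prl7a1 and 0.0520 for Prl4a1.

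Other erythroid genes called lower and higher were 0 and 0 in the main test, 3 and 1 with array weights, above the 25th percentile row or at an adjusted p under 0.1, 4 and 3 above the median row, 6 and 2 with either trended prior, and 1 and 0 with quantile normalization. Their median was -0.044 with array weights, -0.041 with arrays centred, -0.013 with quantile normalization, and -0.050 to -0.013 with 1 array left out. Of all genes, 44 were called lower and 51 higher, against 108 and 135 with array weights, 109 and 126 above the 25th percentile row, 356 and 261 above the median row, 511 and 355 with the trended prior, 507 and 359 with the trended and robust prior, 148 and 169 at an adjusted p under 0.1, 64 and 80 with quantile normalization, and 1 to 8 and 1 to 17 with 1 array left out. The filters test fewer genes and also refit the prior variance on the genes kept, and the left-out arrays remove samples. The cause of these shifts was not tested. Without detection calls, values of dim rows cannot be set apart from background.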
